A study of Sus scrofa with 8 samples.

Results

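The airway secretion and mucosal defense genes AGR2, BPIFA1, BPIFB1, ELF3, LTF, PIGR and WFDC2 were examined in lung of Tibetan and Duroc pigs. Their probes were found by gene symbol, taken from the study's supplementary tables or from the RefSeq accession of the array design, and had to be well above background on at least 1 of 8 arrays. This gave 10 probes for 7 genes, out of 5473 probes for 3828 genes with a symbol and 34406 probes in all that met the same background condition. All 10 probes were well above background on all 8 arrays, and no probe with a member's symbol failed the condition. BPIFA1, BPIFB1 and PIGR had more than 1 probe, and the brighter one leads below. The genes were chosen from their breed values on these same arrays, so the difference between the breeds is described here without a test. Lists that the study selected on these arrays by breed and by the interaction of breed and altitude held 9 of the 10 probes. They were the only source of the symbol for 3 of these, and the others also had a RefSeq symbol. The interaction is also the difference between the breed values by which the genes were chosen. Neither the interaction nor an altitude effect within a breed, which contains it, is therefore independent of the choice. The altitude effect averaged over the breeds was not part of it. The same estimate of a probe's spread between arrays enters the breed and the altitude contrasts, however, so its calls are not fully free of the choice.

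The study used a migrant design with 4 groups of 2 female pigs, each pig on its own 1-color array. Tibetan pigs lived at high altitude (TH, 3500 m) and Duroc pigs at low altitude (DL, 40 m), and other animals of each breed were moved at 1 month of age to low altitude (TL, Tibetan) or to high altitude (DH, Duroc). All pigs were 6 months old when the lung was taken. All Tibetan pigs came from the high-altitude population and all Duroc pigs from the low-altitude one, so TL and DH are also the moved groups and TH and DL the groups that stayed. The piglets were selected as unrelated and of similar weight, per the study's methods, and only 2 of each group were harvested. The samples are lung tissue of mixed cells, from a part of the lung that the methods do not name. A difference in a transcript therefore cannot be told apart from a difference in the number of cells that hold it.

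The airway surface is covered by a fluid that secretory cells and submucosal glands load with mucins, antimicrobial proteins and antibodies. Goblet and club cells fold large amounts of secreted protein in the endoplasmic reticulum, and the epithelium carries immunoglobulin A from plasma cells below it to the lumen. Several of these proteins, lactoferrin among them, are also stored in neutrophil granules.

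Each array had between 26466 and 31723 probes well above background out of 43603, and none had a saturated spot. The 2 TL arrays stood apart: their median spot signals were 324 and 333.5, against 207.5 to 230 on the other 6 arrays, and they correlated with arrays of other groups at 0.918 to 0.941, where the rest correlated at 0.961 to 0.967. Arrays of the same group correlated at 0.981 to 0.994. TH and DL arrays shared 1 slide and DH and TL arrays the other, so the slide cannot be told apart from the interaction of breed and altitude. It likewise cannot be told apart from altitude within a breed or from breed at 1 altitude, whereas the mean altitude effect and the mean breed effect are balanced over the slides. The surfactant genes SFTPA1, SFTPB, SFTPC and SFTPD, which mark lung alveoli, were well above background on all 8 arrays. Values below are the deposited log2 expression values of a probe. The SD between the 2 arrays of a group lay between 0.00073 and 0.14 for the 10 probes, with a median of 0.028 against 0.0402 over all tested probes.

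On 9 of the 10 probes, 6 of the 7 genes were higher in Tibetan than in Duroc pigs at both altitudes with no overlap between arrays. Over all tested probes, 11.5% did the same and 21.4% were lower in Tibetan pigs at both altitudes without overlap. On the same 9 probes every one of the 4 Tibetan arrays lay above every one of the 4 Duroc arrays, as on 7.39% of all tested probes. The exception was WFDC2, which was higher in Tibetan pigs at high altitude and lower at low altitude. The difference was at least 2-fold at both altitudes on 8 probes of 5 genes, against 1.37% of all tested probes, and ELF3 was the gene with the breed order that fell short of this. These counts restate how the genes were chosen. The median breed difference of the 10 probes was 1.31 on the log2 scale at high altitude and 1.47 at low altitude, and that of all tested probes was -0.01 and -0.21.

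**Figure D1:**
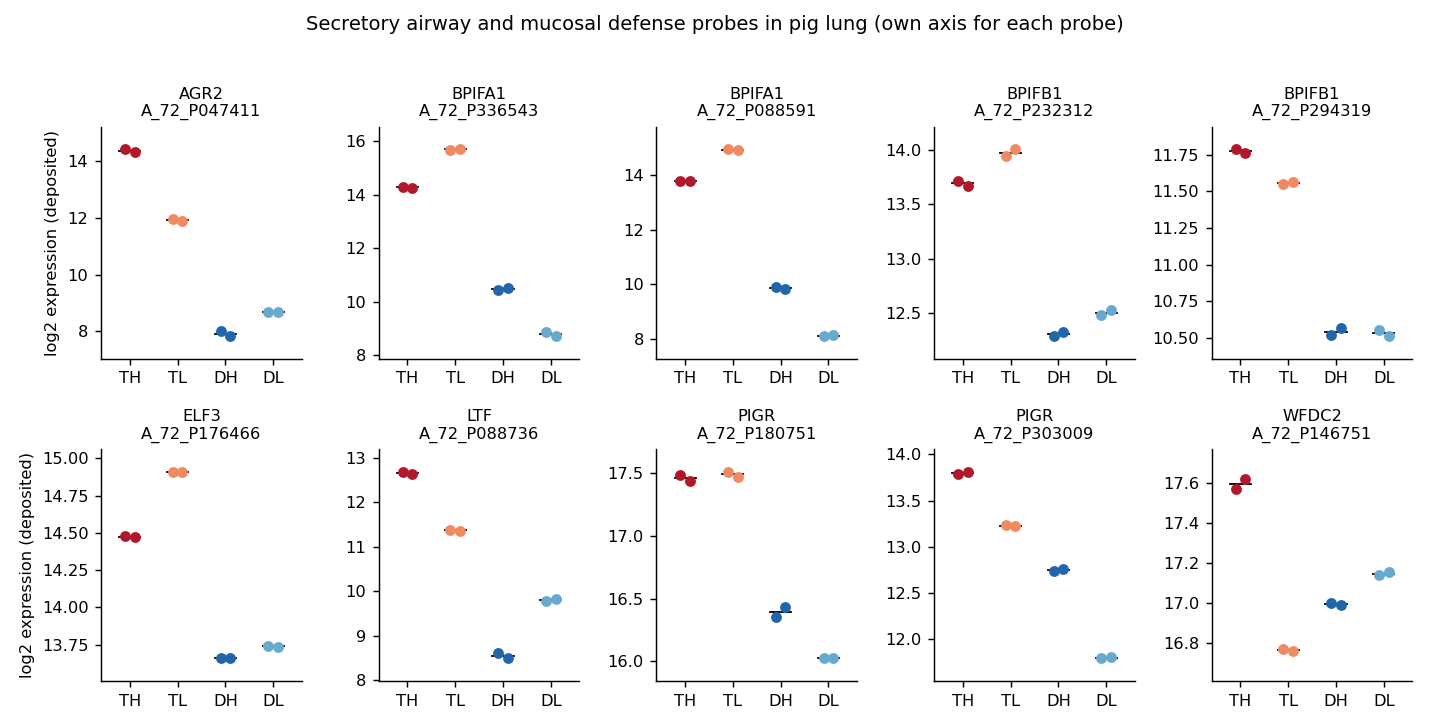
Deposited log2 expression of the 10 probes on each of the 8 arrays (points, 2 per group) with the group mean (line), for TH, TL, DH and DL; each panel has its own axis. On 9 probes all Tibetan points lie above all Duroc points, and on WFDC2 the TL points are the lowest.

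AGR2 is an endoplasmic reticulum protein needed to fold mucins. Its probe A_72_P047411 read 14.41 and 14.32 on the TH arrays, 11.94 and 11.88 on TL, 8.02 and 7.82 on DH, and 8.68 and 8.69 on DL. The 4 groups were separate from each other, in the order TH, TL, DL, DH. Tibetan pigs exceeded Duroc pigs by 6.44 at high altitude, 86.9-fold with a standard error of 0.075 on the log2 scale, and by 3.23, or 9.35-fold, at low altitude. At high altitude this was the 10th largest Tibetan excess of the 34406 tested probes, and at low altitude it ranked 964. In the processed scanner signals the probe ran from 189.2 in a DH array to 22713.4 in a TH array, and it was well above background on each of them.

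BPIFA1 encodes a secreted protein of the airway lining fluid that is active against bacteria. The brighter probe, A_72_P336543, read 14.30 and 14.26 on the TH arrays, 15.70 and 15.70 on TL, 10.46 and 10.53 on DH, and 8.86 and 8.71 on DL. Here TL was the highest group and DL the lowest, and no arrays of different groups overlapped. The Tibetan excess was 3.79, or 13.8-fold, at high altitude and 6.91, or 121-fold, at low altitude, each with a standard error of 0.0597. The low-altitude excess ranked 5 among all tested probes, and that of the second probe, A_72_P088591, ranked 6. The second probe read 13.78 and 13.79 on the TH arrays, 14.95 and 14.92 on TL, 9.89 and 9.81 on DH, and 8.08 and 8.12 on DL, the same order of groups. Its Tibetan excess was 3.94 at high and 6.83 at low altitude, and the 2 centered profiles differed by a root mean square of 0.116.

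BPIFB1, a secreted relative of BPIFA1 made by goblet cells and glands, is the next gene to BPIFA1 on chromosome 17 of the RefSeq annotation of Sscrofa11.1. The brighter probe, A_72_P232312, read 13.72 and 13.67 on the TH arrays, 13.94 and 14.00 on TL, 12.28 and 12.33 on DH, and 12.48 and 12.52 on DL. The Tibetan excess was of like size at both altitudes, 1.39 (2.61-fold) at high and 1.47 (2.78-fold) at low altitude, with a standard error of 0.0374. The neighboring gene therefore had a much smaller breed difference than BPIFA1. The second probe, A_72_P294319, read 11.79 and 11.76 on the TH arrays, 11.55 and 11.57 on TL, 10.52 and 10.57 on DH, and 10.55 and 10.51 on DL. It gave an excess of 1.23 at high and 1.02 at low altitude, its DH and DL arrays overlapped, and it placed TH above TL where the brighter probe placed TL above TH.

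LTF encodes lactoferrin, the iron-binding protein of mucosal secretions and neutrophil granules. Its probe A_72_P088736 read 12.69 and 12.64 on the TH arrays, 11.38 and 11.36 on TL, 8.60 and 8.49 on DH, and 9.79 and 9.83 on DL. The groups were separate, in the same order as for AGR2. The Tibetan excess was 4.12, or 17.4-fold, at high altitude, where it ranked 83 of all tested probes, and 1.56, or 2.95-fold, at low altitude, with a standard error of 0.0476.

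PIGR encodes the receptor that takes up polymeric immunoglobulin A below the epithelium and carries it to the luminal side. Part of the receptor is released there with the antibody as secretory component. The brighter probe, A_72_P180751, read 17.48 and 17.44 on the TH arrays, 17.51 and 17.47 on TL, 16.35 and 16.43 on DH, and 16.03 and 16.02 on DL. TH and TL overlapped and could not be ordered, while both Duroc groups were lower and separate. The Tibetan excess was 1.07 (2.10-fold) at high and 1.46 (2.76-fold) at low altitude, with a standard error of 0.0387. The second probe, A_72_P303009, read 13.79 and 13.81 on the TH arrays, 13.24 and 13.22 on TL, 12.74 and 12.76 on DH, and 11.79 and 11.81 on DL. Its Tibetan excess was nearly the same, 1.05 and 1.43, but its 4 groups were all separate, with each high-altitude group above the low-altitude group of its breed.

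ELF3 is a transcription factor of the ETS family found in epithelia. Its probe A_72_P176466 read 14.48 and 14.47 on the TH arrays, 14.91 and 14.91 on TL, 13.66 and 13.66 on DH, and 13.74 and 13.74 on DL. All 4 groups were separate, with TL highest. The Tibetan excess was 0.82 (1.76-fold) at high and 1.17 (2.25-fold) at low altitude, with a standard error of 0.0208.

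WFDC2 encodes a small secreted protein with WAP domains that is abundant in airway epithelium. It was the member whose probe, A_72_P146751, was named by its RefSeq accession alone. It read 17.57 and 17.62 on the TH arrays, 16.77 and 16.76 on TL, 17.00 and 16.99 on DH, and 17.14 and 17.15 on DL, so that the Tibetan groups were the highest and the lowest and the Duroc groups lay between them. Tibetan pigs were 1.52-fold higher at high altitude (0.60, standard error 0.027) and 1.30-fold lower at low altitude (-0.38). Opposite breed directions without overlap were seen on 40.3% of all tested probes.

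**Figure D2:**
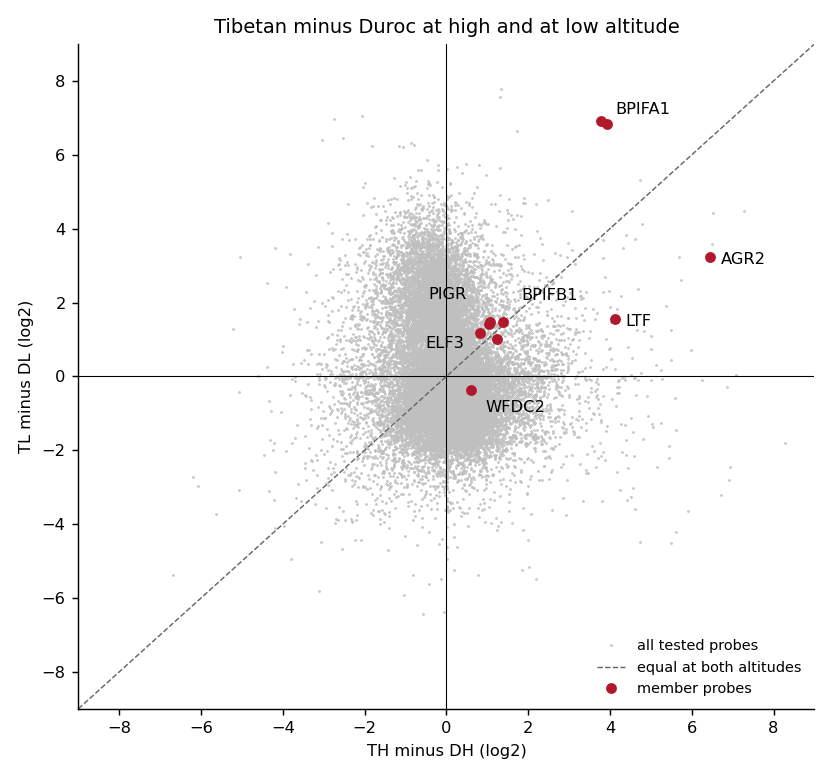
Log2 difference between Tibetan and Duroc pigs at high altitude (TH minus DH, horizontal axis) and at low altitude (TL minus DL, vertical axis) for the 10 member probes (red) and all 34406 tested probes (grey); the dashed line marks equal differences. AGR2 and LTF lie to the right of the line, BPIFA1 far above it, and WFDC2 is the gene in the lower right quadrant.

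Within each slide the Tibetan arrays read higher for the same 9 probes. This follows from every Tibetan array lying above every Duroc array, so only the sizes are given, as a description. On the slide that held TH and DL, AGR2 was 5.68 higher in the Tibetan arrays, and on the slide that held TL and DH it was 3.99 higher. BPIFA1 differed by 5.50 and 5.20 (brighter probe) and LTF by 2.85 and 2.83 on the same 2 slides. ELF3 differed by 0.73 and 1.25, the brighter BPIFB1 probe by 1.19 and 1.67, and the brighter PIGR probe by 1.44 and 1.10. The second PIGR probe differed by 2.00 and 0.48, the second BPIFA1 probe by 5.68 and 5.09, and the second BPIFB1 probe by 1.24 and 1.01. WFDC2 changed sign (0.45 and -0.23). These within-slide values set the breeds at opposite altitudes. In another scaling, the processed scanner signals divided by the 75th percentile of each array, the Tibetan excess of ELF3 at low altitude was 0.49, that of BPIFB1 0.90 on both probes, and that of PIGR 0.94 and 0.96, while 9 probes still showed no overlap with Tibetan pigs higher at both altitudes.

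Altitude was tested with limma, and a probe was called at a false discovery rate (FDR) below 0.0001, the threshold of the study's methods, over all 34406 tested probes. With the breeds averaged, 4 of the 10 probes were called, 3 higher and 1 lower at high altitude, against 26.3% of all tested probes (14.0% higher and 12.2% lower). The higher ones were AGR2 (0.84, adjusted p = 8.11e-05), the second PIGR probe (0.76, adjusted p = 4.54e-06) and WFDC2 (0.34, adjusted p = 5.47e-05). ELF3 fell by 0.26 with an adjusted p of 5.63e-05, but with the 75th percentile scaling its value was 0.12. With that scaling 5 probes were called higher and 0 lower, where 30.4% of all tested probes were called and 19.7% were called higher. The brighter PIGR probe read 0.17 higher at high altitude (adjusted p = 0.00326), BPIFA1 0.15 and 0.30 (0.0281 and 0.000267), the BPIFB1 probes -0.24 and 0.11 (0.000716 and 0.00611), and LTF 0.01 (0.799). At an FDR below 0.05, 9 were called, against 70.8% of all tested probes. With any 1 array left out, fewer member probes were called at the stricter threshold, as were fewer of all tested probes.

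For several members the 2 breeds had altitude values of opposite sign. An altitude effect within a breed contains the interaction, so it is not independent of how the members were chosen. Calls and adjusted p values within a breed, here and in the paragraphs below, are therefore given as a description. Within Tibetan pigs 7 probes were called (4 higher and 3 lower in TH than in TL), against 37.1% of all tested probes (20.5% higher and 16.6% lower). Within Duroc pigs 4 were called (3 higher and 1 lower in DH than in DL), against 9.95% (5.83% and 4.12%). At an FDR below 0.05, 9 probes were called in each breed, where the background was 76.0% in Tibetan and 60.2% in Duroc pigs. Left out in turn, the arrays gave fewer calls in both breeds at an FDR below 0.0001, the fewest in Tibetan pigs without a TL array. All tested probes had fewer calls in these fits too, so the drop is not read as particular to the members. In these fits the altitude values within a breed kept their sign on every member probe except the second BPIFB1 probe. That probe turned in Duroc pigs, where its value was near 0.

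AGR2 and LTF were higher in the high-altitude group of Tibetan pigs. AGR2 exceeded its TL level by 2.45 in TH (5.47-fold, standard error 0.075, adjusted p = 4.71e-06), and LTF by 1.29 (2.45-fold, standard error 0.0476, adjusted p = 8.52e-06). In Duroc pigs both ran the other way. LTF fell by 1.27 from DL to DH (2.41-fold, adjusted p = 3.91e-05), and AGR2 read -0.77, which missed the threshold (adjusted p = 0.000677).

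BPIFA1 had the reverse pattern. The brighter probe was 2.67-fold lower in TH than in TL (-1.42, standard error 0.0597, adjusted p = 1.35e-05) and 3.27-fold higher in DH than in DL (1.71, adjusted p = 3.38e-05). The second probe gave -1.15 (adjusted p = 5.26e-06) and 1.75 (adjusted p = 1.49e-05). In each breed the lower BPIFA1 group was thus the one that had stayed and the higher group the one moved at 1 month, while for AGR2 and LTF the group that had stayed read higher. The moved groups were also the groups of 1 slide, so the move and the slide cannot be told apart here. With the 75th percentile scaling the Tibetan values shrank to -0.68 and -0.45 and were no longer called.

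The other genes moved less with altitude. WFDC2 was 1.78-fold higher in TH than in TL (0.83, adjusted p = 5.74e-06), and its Duroc value was -0.15 (adjusted p = 0.00603). The second PIGR probe was higher at high altitude in both breeds, by 0.57 in Tibetan (adjusted p = 1.37e-05) and by 0.95 in Duroc pigs (adjusted p = 1.89e-05). The brighter PIGR probe read -0.03 (0.532) and 0.37 (0.000889), so the 2 probes did not give the same altitude result. ELF3 was 1.35-fold lower in TH than in TL (-0.43, adjusted p = 2.15e-05) in the deposited values but not with the scaling below, with -0.08 in Duroc pigs (adjusted p = 0.021). The brighter BPIFB1 probe read -0.28 and -0.20 and the second 0.22 and 0.01 in the Tibetan and Duroc pigs, none of them called.

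Several of these Tibetan values depended on the scaling. The median of all tested probes in TH against TL was 0.11 in the deposited values and 0.25 with the 75th percentile scaling. With that scaling ELF3 was 0.29 higher in TH (adjusted p = 9.54e-05), the brighter BPIFB1 probe 0.34 (0.000526) and the brighter PIGR probe 0.56 (8.76e-05), and 7 member probes were called higher in TH and 0 lower, where 26.6% of all tested probes were called higher and 15.7% lower. AGR2 (2.84), LTF (1.53) and WFDC2 (1.51) kept their direction, as did both BPIFA1 probes.

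**Figure D3:**
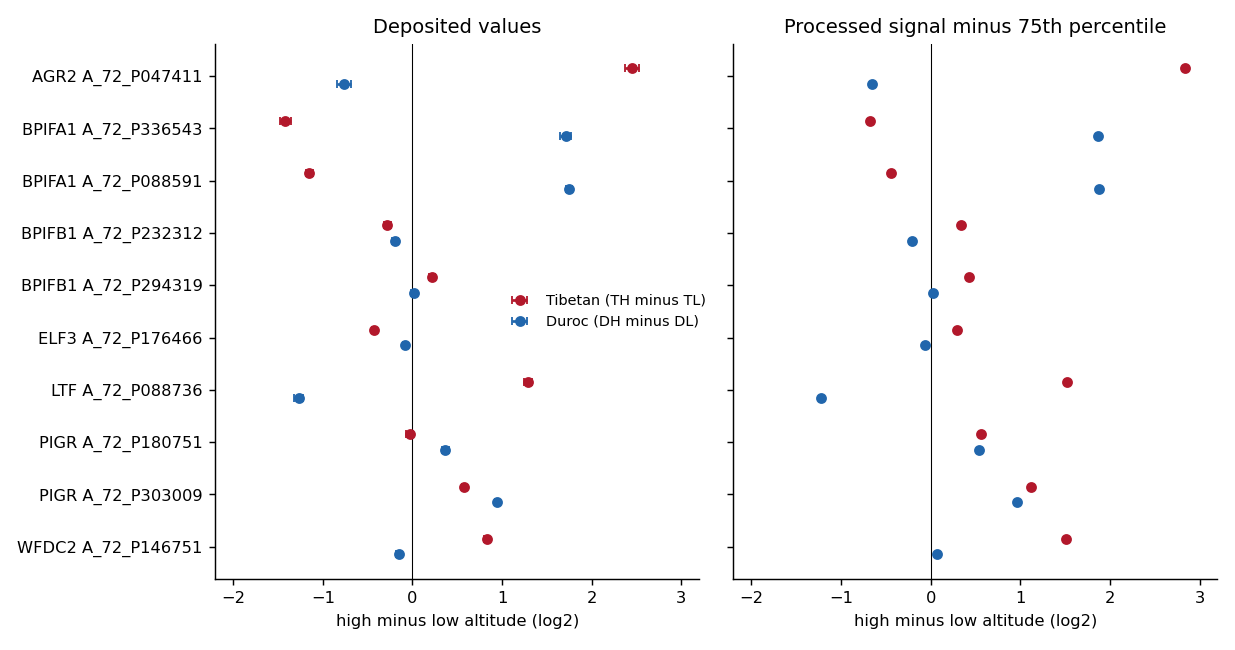
High minus low altitude on the log2 scale for each member probe in Tibetan (red) and Duroc (blue) pigs, from the deposited values with standard errors (left) and from processed signals minus the 75th percentile of each array (right, no error bars). AGR2, LTF and BPIFA1 have the 2 breeds on opposite sides of 0 in both panels, and ELF3 crosses 0 in Tibetan pigs.

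The difference between the altitude effects of the breeds, which is also the difference between the slides, entered the choice of the members and is given as a description. It passed the threshold on 5 probes, as on 28.4% of all tested probes. It was 3.22 for AGR2, 2.56 for LTF and 0.98 for WFDC2, where a positive value means that TH stood higher over TL than DH over DL (14.9% of all tested probes passed in this direction). It was -3.13 and -2.90 for the BPIFA1 probes, the direction in which 13.5% passed. ELF3 (-0.35), PIGR (-0.39 and -0.37) and BPIFB1 (-0.09 and 0.20) stayed short of the threshold. At an FDR below 0.05, 9 probes were called, against 73.7%. With 1 array left out, fewer member probes were called at the stricter threshold, as were fewer of all tested probes.

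Other secretory and mucosal genes did not share 1 breed direction. Of 38 listed genes, 12 had a probe with a RefSeq name and 11 of these were tested, with BPIFA2 not well above background. Averaged over altitude, 2 were called higher in Tibetan pigs, 3 lower and 6 were not called, while 27.4% of all tested probes were called, 12.8% higher and 14.6% lower. At an FDR below 0.05, 10 of the 11 were called, against 71.6%. The median breed difference of the 11 genes was 0.07, and that of all tested probes -0.07.

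DMBT1, a glycoprotein of mucosal surfaces that binds bacteria, had the largest Tibetan excess of the 11 tested list genes. Its TH and TL means were 10.98 and 11.80 and its DH and DL means 8.01 and 8.18 (SD 0.016, 0.018, 0.0045 and 0.032, n = 2 each), 9.83-fold higher in Tibetan pigs (3.30, standard error 0.0194, adjusted p = 7.4e-07). XBP1, a regulator of secretory capacity, was called at 0.29 (adjusted p = 8.92e-05), a value that was -0.02 with the 75th percentile scaling. Lower in Tibetan pigs were the 3 genes for lysozyme (LYZ, -2.16, adjusted p = 1.07e-06), the BPIF family member BPIFB2 (-1.77, adjusted p = 3.27e-06) and the hydrogen peroxide producing oxidase DUOX2 (-0.67, adjusted p = 9.62e-06). LYZ was 4.48-fold and BPIFB2 3.42-fold lower in Tibetan pigs. The DUOX2 difference was -1.50 at high and 0.16 at low altitude, and the latter was -0.43 with the 75th percentile scaling.

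The 6 listed genes without a call were the membrane mucin MUC13 (0.98, adjusted p = 0.000165), the protease inhibitors PI3 and SLPI (-0.05 for SLPI), the chemokine CCL28 (0.24), the chloride channel CFTR (-0.41) and the lectin LGALS3 (0.07). With the 75th percentile scaling MUC13 was called higher (1.22) and SLPI lower (-0.37) in Tibetan pigs. PI3 was not well above background on either array of TL or DH. No measured difference built on those groups is given in the text, only lower bounds, and the place of PI3 in the counts of calls rests partly on them. Its TH level exceeded the dimmest signals counted as above background by at least 13.9-fold for TL and by at least 5.58-fold for DH. For altitude, 2 listed genes were called higher at high altitude (BPIFB2 0.85 and CCL28 0.80) and 3 lower (LYZ -1.80, DUOX2 -0.70 and DMBT1 -0.49). For the difference between the breeds' altitude effects, PI3 and BPIFB2 (2.19) were called positive, without a measured value for PI3, and DUOX2 (-1.66), DMBT1 (-0.65) and LYZ (-0.56) were called negative, although LYZ read -0.08 with the 75th percentile scaling.

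**Figure D4:**
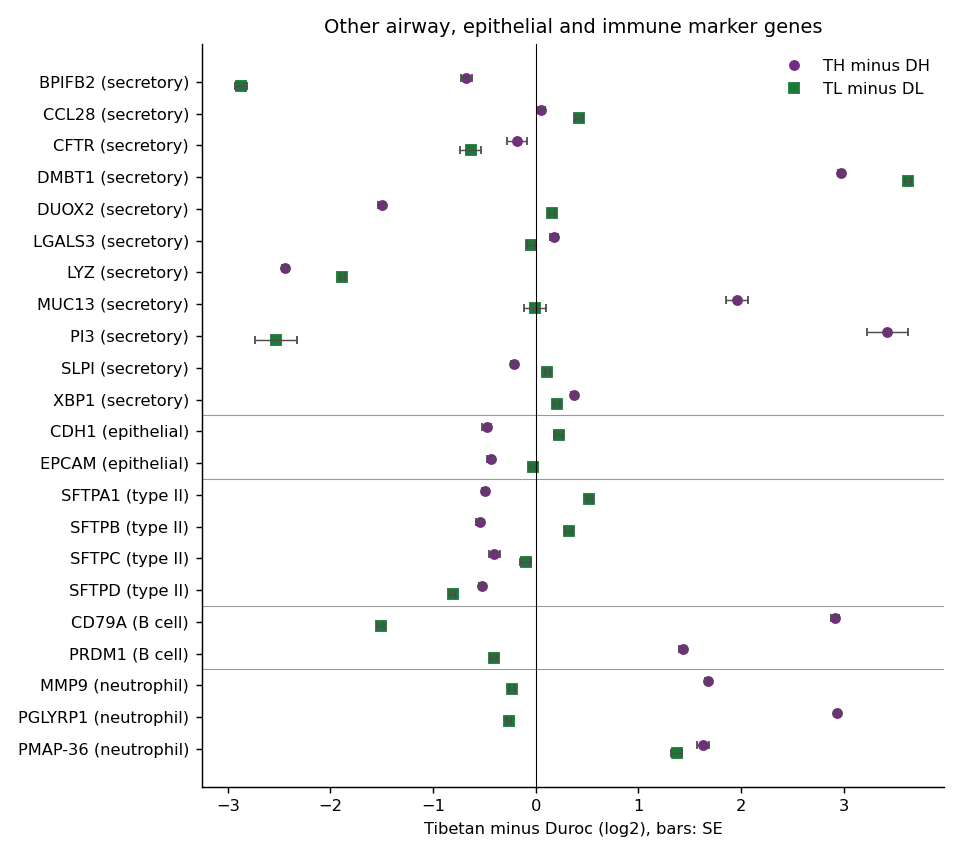
Log2 difference between Tibetan and Duroc pigs at high altitude (circles) and at low altitude (squares), with standard errors, for the tested genes of 5 lists: other secretory genes, epithelial genes, alveolar type II genes, B cell genes and neutrophil genes. DMBT1 and PMAP-36 are well above 0 at both altitudes, and both B cell genes are above 0 at high and below 0 at low altitude. The PI3 points use DH and TL, where PI3 was not well above background, and are not measured differences.

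The 2 tested genes of the epithelial list did not share the Tibetan excess of the members, while the 1 tested cilia gene was called higher averaged over altitude. The epithelial adhesion genes EPCAM and CDH1 read -0.23 and -0.13 in Tibetan against Duroc pigs and were not called, the adjusted p values being 0.000361 and 0.0155. With the 75th percentile scaling both were called lower in Tibetan pigs (-0.60 and -0.47, adjusted p = 1.03e-05 and 8.62e-05), and no more than 2 of 10 listed epithelial genes were tested. Their summed level was 15.89 to 15.91 on TH, 16.32 to 16.37 on TL, 16.34 to 16.36 on DH and 16.28 to 16.33 on DL arrays on the log2 scale. The cilia gene SPAG6, the tested 1 of 14 listed cilia genes, was 0.39 higher in Tibetan pigs (adjusted p = 7.37e-05), with 0.89 at high and -0.11 at low altitude. No basal cell gene of the 5 listed had a RefSeq-named probe. Of 4 alveolar type II genes, SFTPD was lower in Tibetan pigs (-0.67, adjusted p = 4.23e-06) and the other 3 were not called, although SFTPA1 (-0.28) and SFTPB (-0.49) were with the 75th percentile scaling. Of 4 alveolar type I genes HOPX was lower (-0.43, adjusted p = 3.11e-05).

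Of the neutrophil genes, PGLYRP1 and MMP9 were highest in TH, as LTF was, while PMAP-36 was highest in TL. All 3 tested of 15 listed, PGLYRP1, MMP9 and PMAP-36, were higher in Tibetan pigs averaged over altitude (1.34, 0.72 and 1.50, adjusted p = 1.45e-06, 5.34e-06 and 5.25e-06). PGLYRP1 and MMP9 exceeded Duroc levels at high altitude (2.94 and 1.68) and read -0.26 and -0.23 at low altitude, where LTF was still 1.56 higher. PMAP-36 was higher in Tibetan pigs at both altitudes (1.63 and 1.37) and lower at high altitude, with means of 7.13 in TH and 9.52 in TL and an altitude effect of -2.51 (adjusted p = 2.99e-06). The summed level of the 3 genes, to which PGLYRP1 and MMP9 gave most, was on the log2 scale 15.49 to 15.51 on TH, 13.42 to 13.45 on TL, 13.30 to 13.32 on DH and 13.60 to 13.61 on DL arrays. PGLYRP1 and MMP9 were well above background on all 8 arrays and PMAP-36 on 7. Their part in the LTF values was not tested.

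B cell and plasma cell genes, which mark the cells that supply the immunoglobulin carried by PIGR, were also highest in TH. Of 12 listed, CD79A and PRDM1 were tested, and both were called higher in Tibetan pigs (0.70 and 0.51, adjusted p = 1.25e-05 and 2.46e-05), with interactions of 4.43 and 1.84. At low altitude they read -1.51 and -0.41, whereas PIGR was higher in Tibetan pigs there. Their summed log2 level was 13.53 to 13.55 on TH, 11.07 to 11.08 on TL, 11.54 to 11.61 on DH and 11.70 to 11.71 on DL arrays. Their part in the values of the members was not tested.

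Profiles over the 8 arrays were compared by the root mean square difference after each was centered on its mean. The comparison covered 3510 genes with a symbol and a probe well above background on all arrays. Many of these symbols came from the study's supplementary tables, some in order of the breed p-value, so the pool was not independent of breed. Of the nearest genes below, only CLCA1, LTF, DMBT1, USP18 and RAB28 were named by RefSeq accession. Closest to AGR2 was CLCA1 (0.859, where the AGR2 profile itself had a root mean square of 2.58), followed by LTF (1.09). CLCA1 means were 16.31 (TH), 14.51 (TL), 12.33 (DL) and 12.05 (DH), the same order of groups as AGR2. Closest to BPIFA1 were DMBT1 (1.24) and LOC100523870 (1.51), and closest to LTF were SLC6A14 (0.335) and LOC100152150 (0.414). The genes with smaller contrasts had close matches of many kinds: USP18 (0.126) and KCNIP2 (0.160) for BPIFB1, KCNIP2 (0.110) and HBB (0.114) for ELF3, AHSP (0.107) and TMEM120B (0.123) for PIGR, and RAB28 (0.0247) and WDR54 (0.0548) for WFDC2. Among the members, BPIFB1, ELF3 and PIGR were closest to each other (0.230 to 0.255). The AGR2 and BPIFA1 profiles differed by 1.65, more than AGR2 differed from LTF.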

How the data were processed

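Lung RNA of 8 pigs was hybridized by the authors to Agilent porcine 44K arrays, 1 pig per array, and spot intensity was extracted with Agilent Feature Extraction (version 10.7.3.1 per the file headers, 9.1 per the labels). The deposited series table holds log2 values that the methods describe as RMA normalized. Its ranks matched the processed intensity of each array and all columns had a median of 7.40. The steps between are not given in the sources used here. Quantile normalization of the log2 processed signals gave almost the same effects as the deposited values. These log2 values were used as deposited. A model with the 4 groups was fitted with limma 3.58.1 (R 4.3.3) to the 34406 probes that any array measured well above background; p-values were adjusted over all of them (Benjamini-Hochberg) and called at an FDR below 0.0001. With 2 arrays per group, 4 residual degrees of freedom remained (4.934 after moderation), which limits precision. Single spots of 41 probes printed 5 times differed as much within an array (median 0.0509) as between the 2 arrays of a group (0.0466), and p-values measure only this spread between arrays.

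The named probes were all probes of the 7 members, the listed genes with a probe, and the 2 genes nearest to each member in profile. Symbols came from the supplementary tables (3655 probes, some of them in order of the breed p-value) and from RefSeq accessions (2683 of 3250 matched). The genes of the lists were therefore named by RefSeq accession alone, and the brightest probe stood for a gene. A further listed gene is not reported here. Members and lists were chosen with earlier results of these data known. Columns of the authors' own comparisons in the supplementary tables were not used. Alternatives were 4 scalings of the scanner signals, 3 background filters, a two-way ANOVA without moderation, limma with an intensity trend, a block of slide or of replicate number, the other probe of a gene, an FDR below 0.05 and leaving out each array.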

Additional observations from a re-analysis of the deposited data

Results flagged for a closer look

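The altitude effect differed between the breeds, past the threshold of the interaction in limma, for 4 members. The interaction is the difference between the breed values by which the members were chosen, and it is also the contrast between the 2 slides. It helped to select lists that hold AGR2, BPIFA1 and LTF. These values are therefore a description and not independent evidence. For AGR2 the Tibetan value exceeded the Duroc value by 3.22 (log2; 2.45 against -0.77). For LTF it did so by 2.56 (1.29 against -1.27), and for WFDC2 by 0.98 (0.83 against -0.15). For BPIFA1 the difference was -3.13 on the brighter probe (-1.42 against 1.71) and -2.90 on the second (-1.15 against 1.75). All 5 differences kept their sign with the 75th percentile scaling.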

How the results depend on the processing

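With 2 arrays per group, 2 slides and signals read on arrays of unequal brightness, counts at this strict threshold moved easily. The count of 9 member probes higher in Tibetan pigs at both altitudes without overlap was 9 in all 4 scalings. Quantile normalization of the processed signals, 1 of these scalings, gave nearly the deposited values, so it was hardly an alternative. Leaving out an array cannot lower this count, and the count restates how the genes were chosen. No breed difference of a member at either altitude changed sign in these settings. For altitude averaged over the breeds 4 member probes were called. Normexp on the median signal gave 2, no background filter 1, the two-way ANOVA 2 and an FDR below 0.05 gave 9. Of all tested probes, normexp called 6020 and the ANOVA 5265, against 9041 as reported, and that FDR called 70.8%. No such number is at hand for the fit without a background filter. Within Duroc pigs (4 called), the ANOVA gave 2 and the FDR below 0.05 gave 9. Of all tested probes the ANOVA called 929 there, against 3424 as reported, and that FDR called 60.2%. For the interaction (5 called) that FDR gave 9, against 73.7% of all tested probes. Among the 11 other secretory genes, 5 were called for each of breed, altitude and the interaction. An FDR below 0.05 gave 10, 11 and 11, against 71.6%, 70.8% and 73.7% of all tested probes. The ANOVA gave 2 for the interaction, where it called 5663 of all tested probes, against 9786 as reported. With the replicate number as a block, the member counts were 1 (mean altitude), 4 (Tibetan pigs), 0 (Duroc pigs) and 4 (interaction). All tested probes gave 2888, 7141, 0 and 4094 calls in the same order. The other secretory genes gave 3 (breed), 1 (altitude) and 1 (interaction), where all tested probes gave 3697, 2888 and 4094 calls. Same-numbered arrays deviated together by correlations of only -0.0433 to 0.0914, so the numbers were not taken to pair the pigs.

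Without 1 array, member calls ranged from 0 to 1 (mean altitude), 0 to 6 (Tibetan pigs), 0 to 0 (Duroc pigs) and 1 to 4 (interaction), and calls of other secretory genes from 3 to 4 (breed), 1 to 2 (altitude) and 1 to 2 (interaction). Over all tested probes these fits gave 4095 to 8398 calls in Tibetan pigs, against 12777 with all arrays, and 0 to 40 in Duroc pigs, against 3424, so fewer arrays lowered the background too. Of all called probes for mean altitude, 53.4% were higher at high altitude in the deposited values and 64.8% with the 75th percentile scaling.

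Directions turned mostly with the 75th percentile scaling. Mean altitude became 0.0624 for the brighter BPIFB1 probe and 0.12 for ELF3. TH against TL became 0.34 for that BPIFB1 probe, 0.29 for ELF3 and 0.56 for the brighter PIGR probe, and WFDC2 in Duroc pigs became 0.0673. The interaction became 0.55 (brighter BPIFB1 probe), 0.35 (ELF3), 0.0171 (brighter PIGR probe) and 0.15 (second PIGR probe). Median signals with normexp turned the brighter PIGR probe in Tibetan pigs to 0.03 with and without local background (0.0317 and 0.0318), the brighter BPIFA1 probe's mean altitude value to -0.10, and the second BPIFB1 probe in Duroc pigs to -0.0051. Leaving out an array turned 2 values near 0: the second BPIFB1 probe in Duroc pigs ranged from -0.0125 to 0.0353 (below 0 without the second DH or DL array), and LTF averaged over the breeds from -0.0178 to 0.0387 (below 0 without the first TH, DH or DL array). The causes of these turns were not tested.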
